A study of Mus musculus with 13 samples.

Results

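The miR-130 and miR-301 family was examined in B78H1 melanoma as its 4 mature 3p miRNAs, mmu-miR-130a-3p, mmu-miR-130b-3p, mmu-miR-301a-3p and mmu-miR-301b-3p, out of 1079 mouse miRNAs on the array. The family was selected on the lower signal of mmu-miR-130b-3p in curcumin-treated tumors, so the diet difference of that miRNA is given as a description without a test. B78H1 is an amelanotic mouse melanoma line, and the tumors grew after subcutaneous injection of 100000 cells into each flank of male C57BL/6 mice. The 7 curcumin-treated tumors came from mice on chow with 4% curcumin, a polyphenol of turmeric, begun 14 days before the cells were injected and kept up to tumor removal, and the 6 control tumors came from mice on standard chow. Tumors were followed for 28 days, and each was measured on 1 single-color array. The labels do not say which tumors shared a mouse, so the p-values measure the spread between tumors.

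miRNAs are short RNAs that guide Argonaute proteins to messenger RNAs, mainly through the seed, bases 2 to 8 from the 5' end. Members of the miR-130 and miR-301 family share this seed and are therefore predicted to bind overlapping sets of targets, among which Pparg is widely studied. In the RefSeq annotation of build GRCm38.p6, Mir130b and Mir301b lie next to each other on chromosome 16, both within 2610318N02Rik, whereas Mir130a lies on chromosome 2 outside other genes and Mir301, which encodes mmu-miR-301a-3p, lies on chromosome 11 within Ska2. The comparison of diets therefore also asks whether the clustered pair mmu-miR-130b-3p and mmu-miR-301b-3p moved apart from mmu-miR-130a-3p and mmu-miR-301a-3p.

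The RefSeq mature sequences of 3 members are shown because the array has to tell these miRNAs apart. The seed is in capitals.
mmu-miR-130a-3p: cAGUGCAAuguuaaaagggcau
mmu-miR-130b-3p: cAGUGCAAugaugaaagggcau
mmu-miR-301a-3p: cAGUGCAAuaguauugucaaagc
The 22 bases of mmu-miR-130a-3p and mmu-miR-130b-3p differed at 2 positions counted from the 5' end, U11A and A13G, with the base of mmu-miR-130a-3p first. mmu-miR-301a-3p, with 23 bases, shared its first 9 bases with both. Of 1679 mature mouse miRNAs in the sequence table, 7 (0.417%) carried this seed, and 4 of these 7 were on the array. Those 4 were mmu-miR-130a-3p, mmu-miR-130b-3p, mmu-miR-301a-3p and mmu-miR-721. The table held no mature sequence of mmu-miR-301b-3p, which is therefore not counted.

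The hairpins of the clustered genes are shown because their 3p arms carry the same seed, again in capitals, at the start of the mature 3p miRNA.
Mir130b: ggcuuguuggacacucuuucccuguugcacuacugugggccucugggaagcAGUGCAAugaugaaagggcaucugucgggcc
Mir301b: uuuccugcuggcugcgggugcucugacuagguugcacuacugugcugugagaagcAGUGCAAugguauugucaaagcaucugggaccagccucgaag
The same bases occurred in 12 (1.19%) of 1005 hairpins in the table.

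The summed signal over all mouse miRNAs was between 114095 and 281508 intensity units in curcumin-treated tumors and between 150272 and 244666 in controls, and no spot of a mouse miRNA was saturated. Between 272 and 370 miRNAs were detected per curcumin-treated tumor and between 313 and 412 per control. Curcumin-treated tumor 5 had the lowest summed signal and the fewest detected miRNAs. On both slides, all controls lay in line 1 of the array positions and all curcumin-treated tumors in line 2, so position and diet cannot be told apart. In bulk tumor RNA, fewer cells of a type and less of a miRNA per cell cannot be told apart either. limma called 171 of 1079 miRNAs (15.8%) at an adjusted p-value below 0.05, 90 (8.34%) higher and 81 (7.51%) lower in curcumin-treated tumors.

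mmu-miR-130b-3p, which chose the family, was detected on all 13 arrays. Its summed signal was between 45.2 and 114 units with a median of 61.1 in the 7 curcumin-treated tumors, and between 173.8 and 359 units with a median of 221 in the 6 controls. Every curcumin-treated tumor lay below every control on this scale, and the control median was 3.62 times the curcumin median. After quantile normalization its log2 signal was 6.23 ± 0.82 (SD, n = 7) in curcumin-treated tumors and 8.01 ± 0.43 (SD, n = 6) in controls, a difference of -1.79 (SE 0.37). On the normalized scale the groups overlapped through curcumin-treated tumor 5 alone. It stood at 7.97 and thus above control tumor 5 at 7.25 and control tumor 6 at 7.79. The other 6 curcumin-treated tumors lay between 5.50 and 6.34, and without tumor 5 the difference was -2.08 (SE 0.22).

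The clustered partner mmu-miR-301b-3p had a low signal. It was detected in 6 of 6 controls and in 3 of 7 curcumin-treated tumors, namely tumors 2, 3 and 5. Its summed signal was between -0.61 and 2.93 units with a median of 1.77 in curcumin-treated tumors, and between 8.60 and 18.3 units with a median of 10.9 in controls. Every curcumin-treated tumor again lay below every control, as was the case for 33 (3.06%) of all 1079 miRNAs, of which 594 were not detected on any array. Its values were not used to choose the family.

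The normalized log2 difference of mmu-miR-301b-3p was -3.65 (SE 1.34, 95% confidence interval -6.59 to -0.70) and missed the threshold in limma (adjusted p = 0.0919). An exact two-sided permutation test, which took the 1716 possible splits of 7 and 6 tumors, gave p = 0.00291. The spread in the curcumin-treated group came mainly from tumor 6, whose signal was negative and was set to the lowest positive value of the matrix, -7.03 on the log2 scale. The other curcumin-treated tumors lay between -0.35 and 3.15, and the controls between 2.47 and 4.15. The groups thus overlapped on this scale, through curcumin-treated tumor 5 at 3.15. Without tumor 6 the limma difference was -2.49 (SE 0.56, adjusted p = 0.0195). With a floor of 1 it was -2.59 (adjusted p = 0.00691), and with the deposited log2 values, which hold higher values for dim miRNAs, it was -1.49 (SE 0.26, adjusted p = 0.00115). The size of the difference for mmu-miR-301b-3p thus depended on how signals near 0 were treated, and its direction was negative in each of these cases.

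**Figure D1:**
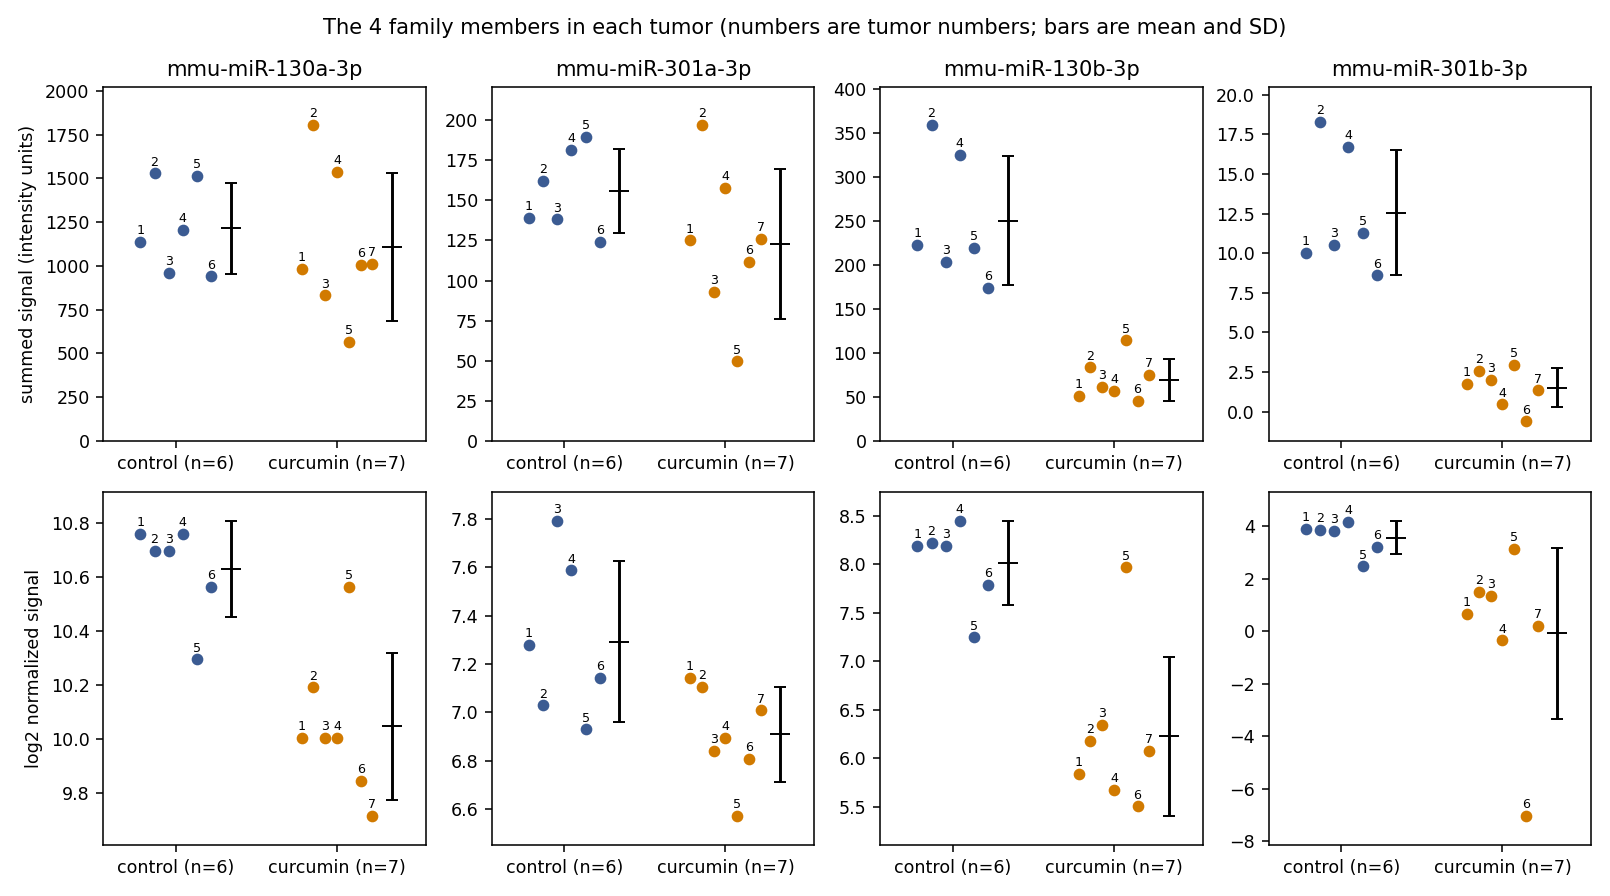
Summed signal in intensity units (top) and log2 signal after quantile normalization (bottom) of the 4 family members in each of 6 control and 7 curcumin-treated tumors. Points are tumors with their numbers, bars give the mean and SD of a diet group, and the signal axes differ between miRNAs. For mmu-miR-130b-3p and mmu-miR-301b-3p every curcumin-treated tumor lies below every control in the top row, while mmu-miR-130a-3p and mmu-miR-301a-3p overlap there. In the bottom row the diet groups overlap for all 4 members. There, 6 of 7 curcumin-treated tumors lie below every control for mmu-miR-130a-3p, mmu-miR-130b-3p and mmu-miR-301b-3p.

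mmu-miR-130a-3p, encoded outside the cluster, was detected on all 13 arrays. Its summed signal was between 567 and 1804 units with a median of 1007 in curcumin-treated tumors, and between 939 and 1529 units with a median of 1170 in controls. The groups overlapped, and the highest value of all belonged to curcumin-treated tumor 2. After quantile normalization the log2 signal was 10.05 ± 0.27 (SD, n = 7) against 10.63 ± 0.18 (SD, n = 6), and 6 of 7 curcumin-treated tumors lay below every control. The difference was -0.58 (SE 0.13, 95% confidence interval -0.86 to -0.30) and passed the threshold in limma (adjusted p = 0.0117), with an exact permutation p of 0.00291. It turned to 0.03 (adjusted p = 1.0) when each array was scaled to its 75th percentile over all 1079 miRNAs, was -0.19 (SE 0.088, adjusted p = 0.228) when it was scaled to that of the miRNAs detected on all arrays, and was -0.20 (adjusted p = 0.868) without normalization between arrays. The call of mmu-miR-130a-3p was therefore made after quantile normalization and in none of these 3 scalings.

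mmu-miR-301a-3p was detected on all 13 arrays as well. Its summed signal was between 49.6 and 197 units with a median of 125 in curcumin-treated tumors, and between 124 and 189 units with a median of 150 in controls. The groups overlapped, with curcumin-treated tumor 5 lowest and curcumin-treated tumor 2 highest. The normalized log2 signal was 6.91 ± 0.20 (SD, n = 7) against 7.29 ± 0.33 (SD, n = 6). The difference of -0.38 (SE 0.15, 95% confidence interval -0.71 to -0.06) missed the threshold in limma (adjusted p = 0.107), and the exact permutation p was 0.0204. It passed when arrays were scaled to the 75th percentile of the miRNAs detected on all arrays (-0.42, adjusted p = 0.0136).

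Of the 3 members that did not choose the family, limma thus called 1 lower and none higher, against 7.51% called lower over all miRNAs. That share includes 594 miRNAs not detected on any array. Among the 243 miRNAs detected on all arrays, limma called 52 lower. On the deposited log2 values it called 2 of these 3 lower, mmu-miR-130a-3p and mmu-miR-301b-3p, against 11.4% called lower over all miRNAs. The median log2 difference was -1.18 over the 4 members, a value that rests in part on mmu-miR-130b-3p and from which nothing is read. It was -0.09 over the 243 miRNAs detected on all arrays and 0 over all 1079 miRNAs, most of which were dim. Among the 243 detected miRNAs, 65 had a more negative difference than mmu-miR-130a-3p and 85 a more negative one than mmu-miR-301a-3p.

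Scaling moved the middle of the distribution. The median difference of the 243 miRNAs was -0.26 without normalization, -0.25 with scaling to the 75th percentile of detected miRNAs and -0.04 with scaling to that of all miRNAs. Relative to this median, mmu-miR-130b-3p stood at -1.60, mmu-miR-301a-3p at -0.17 and mmu-miR-130a-3p at 0.06 in each of these 3 scalings, against -1.69, -0.29 and -0.49 after quantile normalization. mmu-miR-301b-3p lay between -4.30 and -4.27 relative to the median in the same 3 scalings and at -3.55 after quantile normalization. These 3 scalings differ only by a constant per array, which cancels when a difference is taken relative to the median. Their equal values were therefore bound to repeat and do not count as separate evidence. Only values at the floor, as for mmu-miR-301b-3p, could shift between them. The clustered pair lay below the middle of the detected miRNAs under these scalings and after quantile normalization. mmu-miR-130a-3p lay above it under these scalings and below it after quantile normalization.

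**Figure D2:**
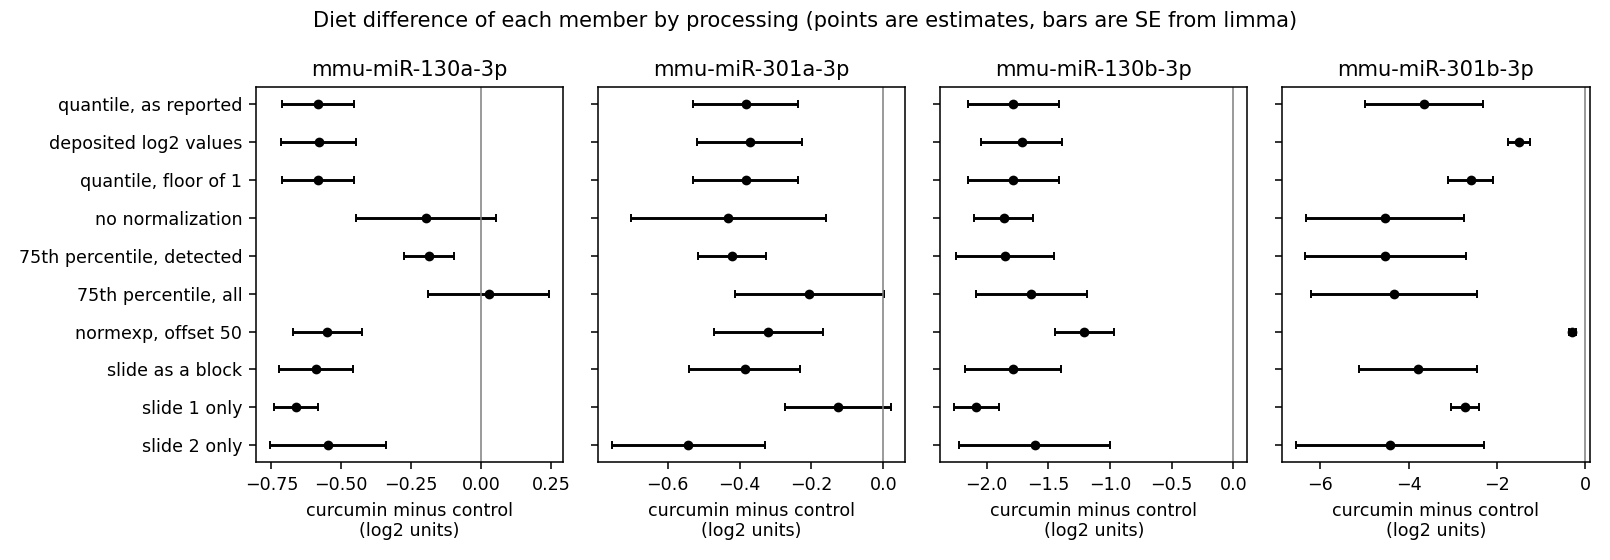
Difference in log2 signal, curcumin-treated minus control tumors, of each family member under 10 ways of processing. Points are limma estimates, bars their SE, the vertical line marks 0, and the axes differ between miRNAs. The points of mmu-miR-130b-3p, mmu-miR-301a-3p and mmu-miR-301b-3p lie left of 0 throughout with sizes that vary. The point of mmu-miR-130a-3p moves to 0.03 in the scaling to the 75th percentile over all 1079 miRNAs.

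The probes of each member were compared separately. Each of the 2 probes of mmu-miR-130b-3p, present in 20 spots, was lower in all 7 curcumin-treated tumors than in any control, with control medians 3.65 and 3.60 times the curcumin medians. All their spots were above background in the median array of both diets. mmu-miR-301b-3p had 4 probes of 10 spots, 2 of which were at or near background in both diets. The 2 probes that carried its signal had control medians of 4.78 and 7.61 units and curcumin medians of 0.89 and 1.76 units, and for each of them every curcumin-treated tumor lay below every control. All of their spots were above background in the median control array and 0% in the median curcumin array, so no fold is given for them. The 2 probes of mmu-miR-130a-3p had control medians 1.14 and 1.18 times the curcumin medians, and those of mmu-miR-301a-3p 1.24 and 1.16 times.

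Ratios of summed signals within an array do not depend on scaling by a constant or on a floor. Because probes differ in brightness, a ratio is compared between tumors and is not a ratio of amounts. The ratios were added after the data were seen, and their p-values are not adjusted. The ratio of mmu-miR-301b-3p to mmu-miR-301a-3p was 1.66% ± 2.07 (SD, n = 7) in curcumin-treated tumors and 8.04% ± 1.91 (SD, n = 6) in controls, with every curcumin-treated tumor below every control (exact permutation p = 0.00117). The margin was narrow, since curcumin-treated tumor 5 stood at 5.91% and control tumor 5 at 5.95%. The ratio of mmu-miR-301b-3p to mmu-miR-130a-3p was 0.170% ± 0.183 (SD, n = 7) against 1.04% ± 0.24 (SD, n = 6), again without overlap (exact permutation p = 0.000583, the smallest that 1716 splits can give). In both ratios the curcumin-treated values rest on a signal near background, detected in 3 of 7 tumors. In curcumin-treated tumor 6 the ratios were negative, at -0.55% to mmu-miR-301a-3p and -0.061% to mmu-miR-130a-3p.

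The ratio of mmu-miR-130b-3p to mmu-miR-130a-3p had a median of 5.18% and a range from 3.72% to 20.2% in curcumin-treated tumors, and a median of 20.4% and a range from 14.5% to 27.0% in controls. Tumor 5 was the only curcumin-treated tumor within the control range, and the other 6 were at or below 7.44%. The ratio of mmu-miR-301a-3p to mmu-miR-130a-3p, the members outside the cluster, had a median of 11.1% and a range from 8.75% to 12.7% in curcumin-treated tumors, and a median of 12.9% and a range from 10.6% to 15.1% in controls, so the groups overlapped. No test was made of these last 2 ratios.

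**Figure D3:**
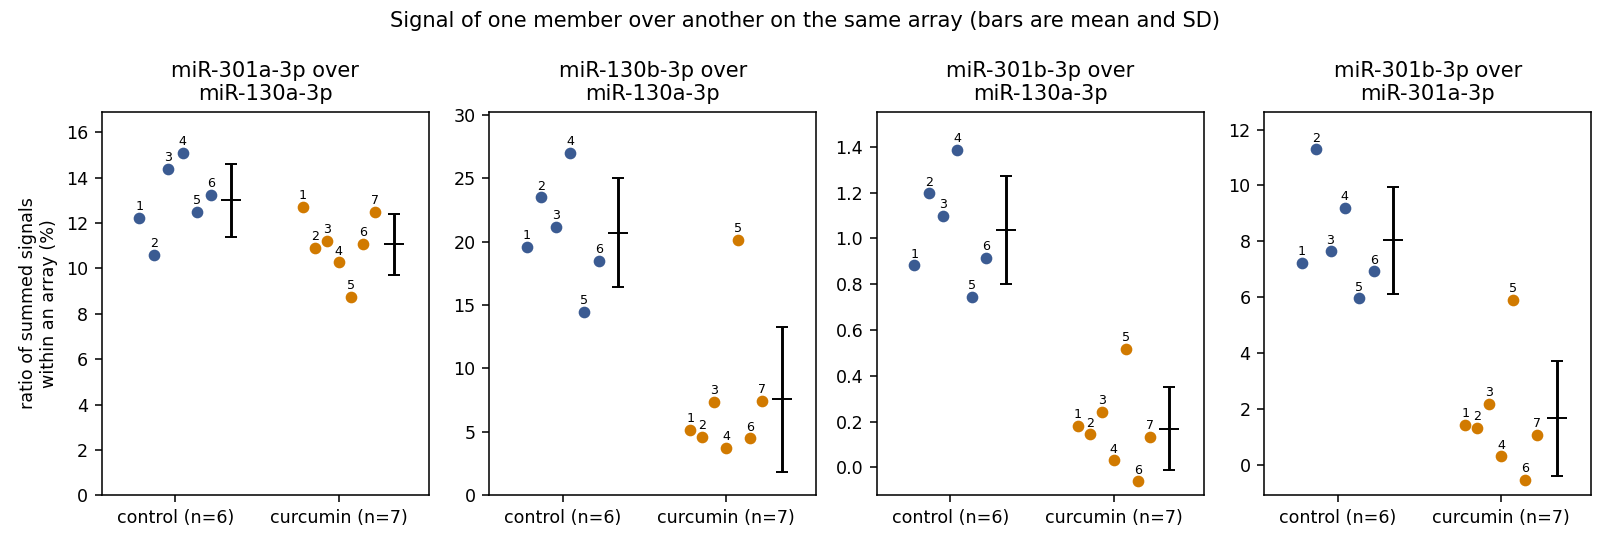
Summed signal of one family member over another on the same array, in percent, for 6 control and 7 curcumin-treated tumors. Points are tumors with their numbers and bars the mean and SD of a diet group. The ratios of mmu-miR-301b-3p do not overlap between diets, that of mmu-miR-130b-3p overlaps through curcumin-treated tumor 5 at 20.2%, and that of mmu-miR-301a-3p to mmu-miR-130a-3p overlaps broadly.

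On the normalized log2 scale, the same question was asked through the gap between members within a tumor, set to 0 at the control mean. The gap of mmu-miR-301b-3p to mmu-miR-301a-3p was -3.26 ± 3.27 (SD, n = 7) in curcumin-treated tumors, with a median of -2.77 and a control SD of 0.48 (exact permutation p = 0.00758, adjusted over the 2 gaps tested p = 0.00758). The gap of mmu-miR-301b-3p to mmu-miR-130a-3p was -3.06 ± 3.11 (SD, n = 7), with a median of -2.30 and a control SD of 0.45 (exact permutation p = 0.00408, adjusted p = 0.00758). The gap to mmu-miR-301a-3p was negative in 6 of 7 curcumin-treated tumors and was 0.30 in tumor 5. Without tumor 6 the differences were -2.13 and -1.95 (adjusted exact permutation p = 0.0108 and 0.00866). A background correction that added an offset of 50 turned the differences to 0.04 (adjusted exact permutation p = 0.968) and 0.27, the latter past the threshold in the opposite direction (adjusted exact permutation p = 0.0128). The offset was added to the brightness of each spot before the probes of a miRNA were summed. It thus entered once for each of the 4 probes of mmu-miR-301b-3p and each of the 2 probes of the other members. These values are on another scale than the summed signal, and the part of the offset in this change was not tested.

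The gaps that involve mmu-miR-130b-3p are descriptions. Its gap to mmu-miR-130a-3p was -1.20 ± 0.61 (SD, n = 7) and its gap to mmu-miR-301a-3p -1.40 ± 0.96 (SD, n = 7), with medians of -1.39 and -1.65. In tumor 5 these gaps were 0.021 and 0.68, at or above the control mean. The gap of mmu-miR-301a-3p to mmu-miR-130a-3p was 0.20 ± 0.41 (SD, n = 7) against a control SD of 0.26. Within the tumors, both miRNAs of the cluster therefore lay further below their control means than the other two in 6 of 7 curcumin-treated tumors.

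Within the diets, the clustered pair varied together, more closely on the deposited values than after quantile normalization. On the deposited log2 values, which have no floor, the deviations of mmu-miR-130b-3p and mmu-miR-301b-3p from their diet means had a Pearson r of 0.94 over the 13 tumors, and of 0.96 without curcumin-treated tumor 5. The same value was 0.87 for mmu-miR-130b-3p with mmu-miR-130a-3p and 0.90 for mmu-miR-301b-3p with mmu-miR-130a-3p, falling to 0.71 and 0.82 without tumor 5. Deviations of mmu-miR-301a-3p had r values of 0.03 with mmu-miR-130a-3p, -0.07 with mmu-miR-130b-3p and 0.16 with mmu-miR-301b-3p, and 0.51, 0.55 and 0.62 without tumor 5. These values are given as descriptions, since the points share the arrays and their normalization. In them mmu-miR-130a-3p went with the clustered pair and mmu-miR-301a-3p did so only when tumor 5 was left out.

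**Figure D4:**
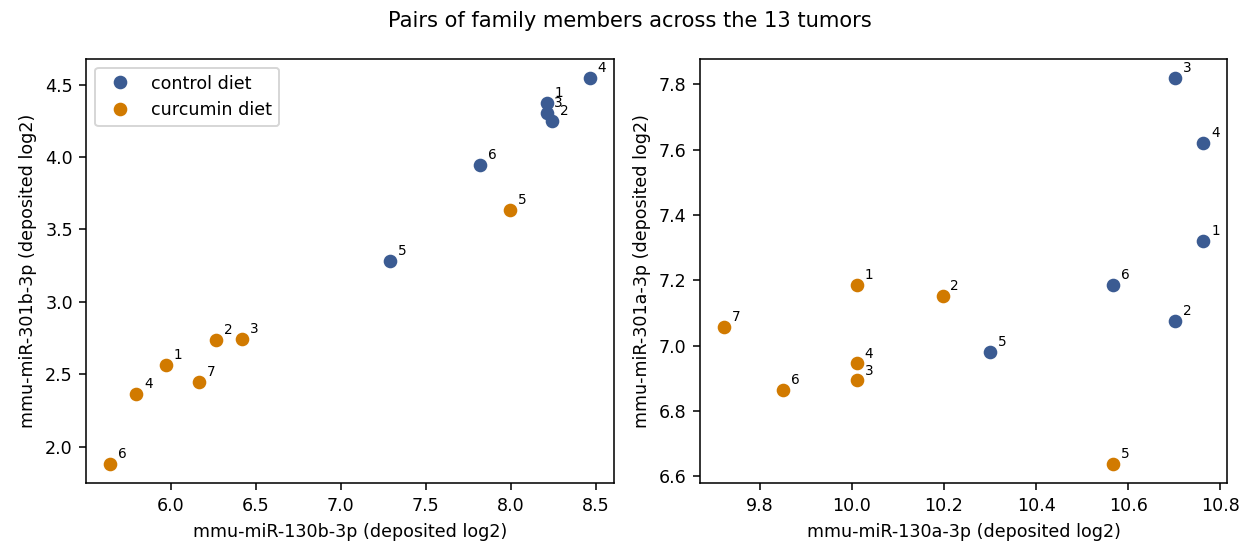
Deposited log2 values of the clustered pair mmu-miR-130b-3p and mmu-miR-301b-3p (left) and of mmu-miR-130a-3p and mmu-miR-301a-3p (right) in 13 tumors. Each point is 1 tumor with its number, colored by diet. In the left panel curcumin-treated tumor 5 lies among the controls at 7.99 and 3.63, and in the right panel it has the lowest mmu-miR-301a-3p, 6.64, with a mmu-miR-130a-3p of 10.57.

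The other arms of the hairpins were measured as well. mmu-miR-130b-5p was detected in 6 of 6 controls and in 1 of 7 curcumin-treated tumors, tumor 5. Its summed signal was between 0.55 and 3.30 units in curcumin-treated tumors and between 4.24 and 7.47 units in controls. The groups did not overlap on this scale, where 33 (3.06%) of all 1079 miRNAs had every curcumin-treated tumor below every control. After quantile normalization they did overlap, with curcumin-treated tumor 5 highest of all at 3.29 and the controls between 0.64 and 3.06. The normalized log2 difference of -1.65 (SE 0.65) missed the threshold in limma (adjusted p = 0.115), and the exact permutation p was 0.0355. mmu-miR-130a-5p, mmu-miR-301a-5p and mmu-miR-301b-5p were not detected on any array, and no difference is given for them.

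mmu-miR-721, which has the same seed as the family and a different 3' part, was the only other miRNA on the array with it.
mmu-miR-721: cAGUGCAAuuaaaagggggaa
Its summed signal was between 38.2 and 107 units with a median of 57.6 in curcumin-treated tumors, and between 58.3 and 181 units with a median of 84.0 in controls. The groups overlapped, and the log2 difference was -0.36 (SE 0.26, 95% confidence interval -0.92 to 0.21, limma adjusted p = 0.529).

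The miR-148 and miR-152 family, best known for targeting the DNA methyltransferase Dnmt1, carries the first 6 bases of the same seed shifted by 1 position. Its seed, bases 2 to 8, is in capitals.
mmu-miR-148b-3p: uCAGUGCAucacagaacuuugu
mmu-miR-152-3p: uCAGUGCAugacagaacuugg
Of its 3 members, limma called 1 higher and none lower, against 8.34% called higher over all miRNAs and 49 of the 243 detected on all arrays. mmu-miR-152-3p had a log2 signal of 8.80 ± 0.62 (SD, n = 7) in curcumin-treated tumors and 7.48 ± 0.22 (SD, n = 6) in controls, and rose by 1.32 (SE 0.26, limma adjusted p = 0.00751). Its lowest curcumin-treated tumor, at 7.64, lay within the controls. mmu-miR-148b-3p differed by 0.20 (SE 0.15, 95% confidence interval -0.13 to 0.54, limma adjusted p = 0.569). mmu-miR-148a-3p was detected in 6 of 7 curcumin-treated tumors and 3 of 6 controls. Its log2 difference of 5.43 (SE 1.76) was not called (limma adjusted p = 0.0574), and the exact permutation p was 0.000583. The size rests in part on the floor, where its lowest control stood at -7.03. Its groups did not overlap on the normalized scale and overlapped on the summed signal.

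The 5 miRNAs most like each member were taken by Pearson r of normalized log2 signals over the 13 tumors, among the 243 miRNAs detected on all arrays. For mmu-miR-130b-3p these were mmu-miR-18a-5p (r = 0.991), mmu-miR-362-5p (0.983), mmu-miR-5097 (0.971), mmu-miR-25-3p and mmu-miR-19b-3p (both 0.970). The r of their deviations from the diet means was between 0.904 and 0.975. For mmu-miR-130a-3p they were mmu-miR-25-3p (0.973), mmu-miR-3069-3p, mmu-miR-20b-5p, mmu-miR-130b-3p and mmu-miR-324-5p (0.950). mmu-miR-25-3p was thus among the 5 nearest of both. Its log2 difference was -0.67 (limma adjusted p = 0.0250), and that of mmu-miR-18a-5p was -1.46 (limma adjusted p = 0.00500).

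For mmu-miR-301b-3p the nearest were mmu-miR-106b-3p (0.985), mmu-miR-135a-1-3p (0.817), mmu-miR-362-5p, mmu-miR-130b-3p and mmu-miR-18a-5p (0.807). mmu-miR-106b-3p was also at the floor of -7.03 in curcumin-treated tumor 6, which both r values for it contain. For mmu-miR-301a-3p the values were lower, from 0.725 for mmu-miR-193-3p over mmu-miR-210-3p, mmu-miR-324-5p and mmu-miR-103-3p to 0.606 for mmu-miR-582-5p, and no other member of the family was among them. The r of deviations from the diet means was between 0.408 and 0.521 for these 5.

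Some markers of cell types differed between the diets, and their counts stand beside the 8.34% of all miRNAs called higher and the 7.51% called lower. Among the 243 miRNAs detected on all arrays, 49 were called higher and 52 lower. Of 2 melanocyte markers, mmu-miR-211-5p fell by 4.76 on the log2 scale (limma adjusted p = 0.0305) and mmu-miR-204-5p was not called. Their summed normalized level was between 4.19 and 624 in curcumin-treated tumors, with a median of 15.9, and between 308 and 847 in controls. Curcumin-treated tumor 5, which stood apart for mmu-miR-130b-3p, held the 624 and was the only curcumin-treated tumor within the control range. Of 3 fibroblast markers limma called 2 higher, and their summed level was between 419 and 982 in curcumin-treated tumors, the lowest being tumor 5, and between 73.5 and 311 in controls.

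Of 5 blood cell markers, 4 were called higher and mmu-miR-451, with a difference of -0.82, was not called (limma adjusted p = 0.614). Their summed level was between 493 and 1511 in curcumin-treated tumors and between 166 and 970 in controls. Of 6 epithelial markers, 1 was called higher, mmu-miR-205-5p, and 4 were not detected on any array. Their summed level was between 218 and 1739 in curcumin-treated tumors, tumor 5 again lowest, and between 3.14 and 165 in controls. Of 3 skeletal muscle markers 1 was called higher, with a summed level between 27.4 and 543 against 21.6 to 372. The 2 endothelial and 2 vessel wall markers were not called, with summed levels of 254 to 820 and 78.7 to 112 in curcumin-treated tumors against 137 to 281 and 46.6 to 102 in controls. The part of cell composition in the differences of the family was not tested.

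Both slides were looked at separately. On slide 1, with 3 curcumin-treated tumors and 2 controls, the log2 difference was -0.66 for mmu-miR-130a-3p, -2.08 for mmu-miR-130b-3p, -0.13 for mmu-miR-301a-3p and -2.72 for mmu-miR-301b-3p. On slide 2, with 4 of each, the differences were -0.55, -1.61, -0.54 and -4.42. The direction was the same on both slides for the 4 members, and with slide as a block mmu-miR-130a-3p remained the only called member of the 3 tested (limma adjusted p = 0.0163).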

How the data were processed

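miRNA of 13 flank tumors was measured on Agilent mouse miRNA arrays (miRBase 17). Per the file headers, the deposited intensity is the total probe signal of Feature Extraction 10.10.1.1, background subtracted and not normalized between arrays. The deposited log2 values were made by the authors, who summed probes per miRNA, applied quantile normalization and took logarithms, with any added constant not given in the sources used here. Here the intensity was summed over the probes of a miRNA, quantile normalized, set to the smallest positive value (0.007653) where it was not above 0 (7215 of 14027 values) and transformed to log2. Quantile normalization gives equal ranks equal values and makes each value relative to the rest of the array. All 1079 miRNAs were fitted with limma 3.58.1 in R 4.3.3 (lmFit, eBayes), calling miRNAs below 0.05 after adjustment by Benjamini and Hochberg. Single values were tested with exact two-sided permutation tests over tumors (numpy 2.4.6), 1716 splits each. Errors are SD unless named SE. The number of arrays limits the precision.

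The members, the lists and the tests were chosen with earlier results of these data known. The named miRNAs were the 4 members, their other arms, the array miRNAs with the same or the shifted seed, and the 5 nearest to each member by Pearson r. Groups came from the labelled diet. No 2 arrays held equal values. Tumors with the same number in both diets had correlations of deviations between -0.301 and 0.198, so the numbers were not taken as pairs. In simulated arrays of 681 miRNAs, 200 of which were shifted by 2 log2 units, the fit recovered 61.5% of the shifted ones, 96.2% of those detected on all arrays, with 8 false calls of 131. The simulated noise was normal and had no floor, and miRNAs with constant values were left out. The shift was also larger than the differences of mmu-miR-130a-3p and mmu-miR-301a-3p. These rates therefore do not carry over to the calls reported here. Alternatives were other scalings, floors, background corrections and filters, the methods' t-test, slide, and leaving out each array.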

Additional observations from a re-analysis of the deposited data

Results flagged for a closer look

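Among 26 diet groups looked at for members, same-seed and shifted-seed miRNAs and gaps between members, 8 held a tumor far from the others by Dixon's limit. For independent groups chance gives about 1 in 20. The gaps reuse the values of the members, so these groups are not independent and their count cannot be set against that rate. The 8 groups were all curcumin-treated, and they concern tumors 5 and 6. Curcumin-treated tumor 5 was the highest for mmu-miR-130b-3p, with a log2 signal of 7.97, for the gap of mmu-miR-130b-3p to mmu-miR-130a-3p (0.021) and for its gap to mmu-miR-301a-3p (0.68). It was the lowest for the gap of mmu-miR-301a-3p to mmu-miR-130a-3p (-0.65). Curcumin-treated tumor 6, set to the floor, was the lowest for mmu-miR-301b-3p (-7.03), for the gaps of mmu-miR-301b-3p to mmu-miR-301a-3p (-10.12) and to mmu-miR-130a-3p (-9.81), and the highest for the gap of mmu-miR-130b-3p to mmu-miR-301b-3p (8.09).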

How the results depend on the processing

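mmu-miR-130b-3p kept a negative difference that moved by less than 1 SD in all alternatives. mmu-miR-130a-3p, called at -0.58, was not called without normalization (-0.20), with the 75th percentile taken over detected miRNAs (-0.19), on slide 1 (-0.66) or on slide 2 (-0.55), and turned to 0.027 with the 75th percentile taken over all miRNAs. The methods' t-test on the same values called 216 miRNAs after Benjamini-Hochberg adjustment, mmu-miR-130a-3p among them and mmu-miR-301a-3p and mmu-miR-301b-3p not. That adjustment ran only over the miRNAs whose values varied, and the limma adjustment over all 1079. The counts of the t-test and of limma are therefore not directly comparable. mmu-miR-301a-3p passed with scaling to the detected miRNAs (-0.42). mmu-miR-301b-3p passed with the deposited values (-1.49), a floor of 1 (-2.59), normexp with offset 50 (-0.28) and among miRNAs detected in a whole diet group (-3.65), a filter that it met through the controls alone. The gaps of mmu-miR-301b-3p to mmu-miR-301a-3p and mmu-miR-130a-3p turned to 0.035 and 0.27 (adjusted exact permutation p = 0.968 and 0.0128) with normexp, whose offset entered once per probe. They were -2.59 and -2.05 on slide 1, where 3 tumors against 2 cannot give an exact p below 0.1, and -3.88 and -3.88 on slide 2 (adjusted exact permutation p = 0.143 and 0.114).

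With the tumor number as a replicate block the gaps were -3.29 and -3.16 (exact permutation p = 0.0625 each, 0.0313 being the smallest possible), mmu-miR-130a-3p was -0.53 (limma adjusted p = 0.120), and 67 miRNAs were called. The count of called miRNAs, 171, was 49 without normalization, 105 with the 75th percentile taken over all miRNAs, 34 on slide 1 and 3 on slide 2. Leaving out 1 tumor at a time gave -0.68 to -0.52 for mmu-miR-130a-3p, -0.47 to -0.28 for mmu-miR-301a-3p, -4.13 to -2.49 for mmu-miR-301b-3p (called only without curcumin-treated tumor 6), -2.08 to -1.66 for mmu-miR-130b-3p, -3.77 to -2.13 and -3.55 to -1.95 for the gaps, and 102 to 184 called miRNAs. The count was 113 without curcumin-treated tumor 1, 112 without tumor 2, 105 without tumor 6, 102 without control tumor 2 and 108 without control tumor 4.

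The planned normexp correction on mean spot brightness was not run and the median brightness, chosen after seeing the data, was used. The ratios within arrays were also added then. Signals of mmu-miR-301b-3p in curcumin-treated tumors were near background, which limits the size of its difference.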
